A study of Rattus norvegicus with 25 samples.

Results

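Heat shock proteins and their co-chaperones were examined here in the striatum of adolescent rats. The set comprised 10 genes, namely Cryab, Hspb1, Bag3, Dnajb1, Dnajb5, Hspa8, Hsp90aa1, Hsp90ab1, Hspd1 and Hsph1, and every probe set whose annotation named exactly 1 of them was taken. This gave 18 of the 29214 probe sets on the array, with 8 for Hspa8, 2 for Hspd1 and 1 for each other gene. All 18 passed the filter on low levels, which kept the 14607 probe sets with a mean no lower than the median one.

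The study asked what nicotine and reduced food intake in pregnancy leave behind in the striatum of the offspring. All animals were experimentally naive male Lister hooded rats killed between postnatal days 35 and 42, and RNA of each was measured on 1 Affymetrix rat gene 1.0st array. The Con group (n = 8) came from dams that received no nicotine and no food restriction. The Nic group (n = 7) came from dams that drank a nicotine solution before mating and during pregnancy. The Con-Pf group (n = 10) came from dams without nicotine that were given each day the amount of food a matched nicotine dam had eaten the day before. Con and Con-Pf dams therefore differed in the amount of food and in the restriction being imposed. The paper also reports lower body weight in Con-Pf than in Con dams, and lower fluid intake in the week before pregnancy. Nic and Con-Pf dams differed in nicotine, in fluid intake and in whether the lower food intake was imposed. The litter of each animal was not given in the sources used here. The methods name fewer pair-fed dams than there are Con-Pf animals, so some of these animals shared a dam, and the p-values below treat every animal as independent. The titles of Con-Pf 9 and Con-Pf 10 give the pair-fed group while their descriptions call them control striatum, and 1 passage of the methods swaps the sizes of the Con and Con-Pf groups. Both arrays were kept as Con-Pf.

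Values are log2 levels after RMA, so a difference of 1 is a doubling, and the levels of different probe sets cannot be ranked against each other. Striatal projection neuron markers were high on every array, with means over 9 genes of 12.09 in Con, 12.11 in Nic and 12.10 in Con-Pf, led by Penk, the precursor of enkephalin, and Ppp1r1b, the dopamine-regulated phosphoprotein DARPP-32. Arrays correlated with each other at 0.967 to 0.997. On the first principal component of all probe sets tested, which held 30.4% of the variance, Con 5 (-33.9) and Con 3 (-25.2) stood apart from the other 23 arrays (-11.6 to 9.63). The differences of the 10 genes and the main counts over lists of related genes are therefore also given without them. The study's supplement reports 1 sample with a low RNA integrity number, which was kept because chip loading was held the likely cause. Which sample it was, and whether it is among these arrays, is not stated.

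Molecular chaperones keep proteins from aggregating and help them fold. Small heat shock proteins bind unfolding proteins without using ATP. HSP70 chaperones then refold their clients in cycles driven by ATP, in which DNAJ proteins deliver the client and start ATP hydrolysis while HSP110 and BAG proteins release the nucleotide. HSP90 acts later, on signalling proteins such as kinases and steroid receptors, and chaperonins fold proteins inside a closed chamber. Under stress many of these genes are switched on by heat shock factor 1, which binds heat shock elements, inverted repeats of GAA and TTC. In the brain, Cryab is known as an abundant product of oligodendrocytes and Hspa8 and Hsp90ab1 as constitutive neuronal chaperones.

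Promoter sequences show how differently the members carry this element. The 250 bases upstream of the annotated start (RefSeq, rat build GRCr8) were searched on both strands for 2 units (GAANNTTC or TTCNNGAA) and for 3 units (GAANNTTCNNGAA or TTCNNGAANNTTC, which contain 2-unit matches). Of 33469 promoters, 13.5% held at least 2 units and 0.663% held 3. Among the 10 genes 8 had an entry (not Cryab or Hsp90aa1): 6 held 2 units and 3 of these, Hspa8, Hspd1 and Hsph1, held 3. Dnajb5, which was called higher in Con-Pf, and Hsp90ab1, which was not called, had no match in this window. The windows of 2 genes that were higher in Con-Pf and hold 2-unit matches only (Bag3 and Hspb1) are shown beside 2 genes that were not called and hold 3 units (Hspa8 and Hsph1). They read 5′ to 3′ towards the gene, with capitals marking the matches.
Bag3, chr1:192533210-192533459 on the plus strand: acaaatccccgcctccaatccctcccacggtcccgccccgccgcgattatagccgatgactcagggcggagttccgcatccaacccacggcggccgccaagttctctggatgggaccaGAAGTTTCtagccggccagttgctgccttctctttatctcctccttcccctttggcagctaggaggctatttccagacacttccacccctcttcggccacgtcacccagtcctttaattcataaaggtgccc
Hspb1, chr12:26432302-26432551 on the minus strand: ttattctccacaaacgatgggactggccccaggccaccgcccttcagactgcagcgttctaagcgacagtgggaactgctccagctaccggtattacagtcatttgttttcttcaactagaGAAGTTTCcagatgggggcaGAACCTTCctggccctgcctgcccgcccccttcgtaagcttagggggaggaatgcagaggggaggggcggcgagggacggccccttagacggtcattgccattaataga
Hspa8, chr8:50080264-50080513 on the plus strand: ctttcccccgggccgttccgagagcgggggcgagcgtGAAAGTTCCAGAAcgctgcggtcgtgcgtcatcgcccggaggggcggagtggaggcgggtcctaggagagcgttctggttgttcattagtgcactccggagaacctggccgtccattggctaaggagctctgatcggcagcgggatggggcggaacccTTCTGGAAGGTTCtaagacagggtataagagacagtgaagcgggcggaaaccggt
Hsph1, chr12:10427118-10427367 on the plus strand: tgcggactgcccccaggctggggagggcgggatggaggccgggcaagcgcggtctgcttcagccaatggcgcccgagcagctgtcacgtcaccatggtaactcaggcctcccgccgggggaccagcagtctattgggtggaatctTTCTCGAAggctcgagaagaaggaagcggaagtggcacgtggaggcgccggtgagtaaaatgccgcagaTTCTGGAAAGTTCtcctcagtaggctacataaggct
In Hspd1 a run of 4 units lay 224 bases before the annotated start at chr9:64084262-64084279 on the minus strand and read TTCCGGAAGGTTCTAGAA. Dnajb1, which was not called, held 1 match of 2 units, which ended 3 bases before its start. The windows shown were picked as examples, and a link between matches and calls was not tested. A match of letters describes the sequence only and says nothing about whether a factor binds there.

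The comparison of Con-Pf with Con asks what food restriction of the dam was associated with. Of the 18 probe sets, 4 were called higher in Con-Pf (limma, Benjamini-Hochberg adjusted p under 0.05 over all 14607 probe sets) and none lower. Over all probe sets tested 1.26% were called, 1.00% higher and 0.260% lower. The members were chosen with earlier results of these data known, so this contrast is a description and not an independent test. The paper's enrichment analysis of the same arrays had already placed Hspb1, Dnajb5 and Dnajb1 among its contributing stress response genes. The called genes were both small heat shock proteins of the set, Cryab and Hspb1, with the co-chaperones Bag3 and Dnajb5. At an unadjusted p under 0.05, 5 of the 18 were higher, Dnajb1 being the other one, against 14.2% of all probe sets. With 1 probe set a gene, 9 of 10 genes had a fold change above 0 (Hsp90aa1 and Hsp90ab1, close to 0, fell below it with further quantile normalisation) and the median was 0.09, beside 55.8% of probe sets above 0 and a median of 0.02 over all those tested. The study's own criterion, a log2 difference of 0.5 or more together with an unadjusted p below 0.01, was applied here to limma's p in place of the methods' t-test. It was met by no member, all of which differed by less than 0.5, and by 0.199% of all probe sets. In no member did the Con and Con-Pf arrays fail to overlap, as they did in 0.274% of all.

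**Figure D1:**
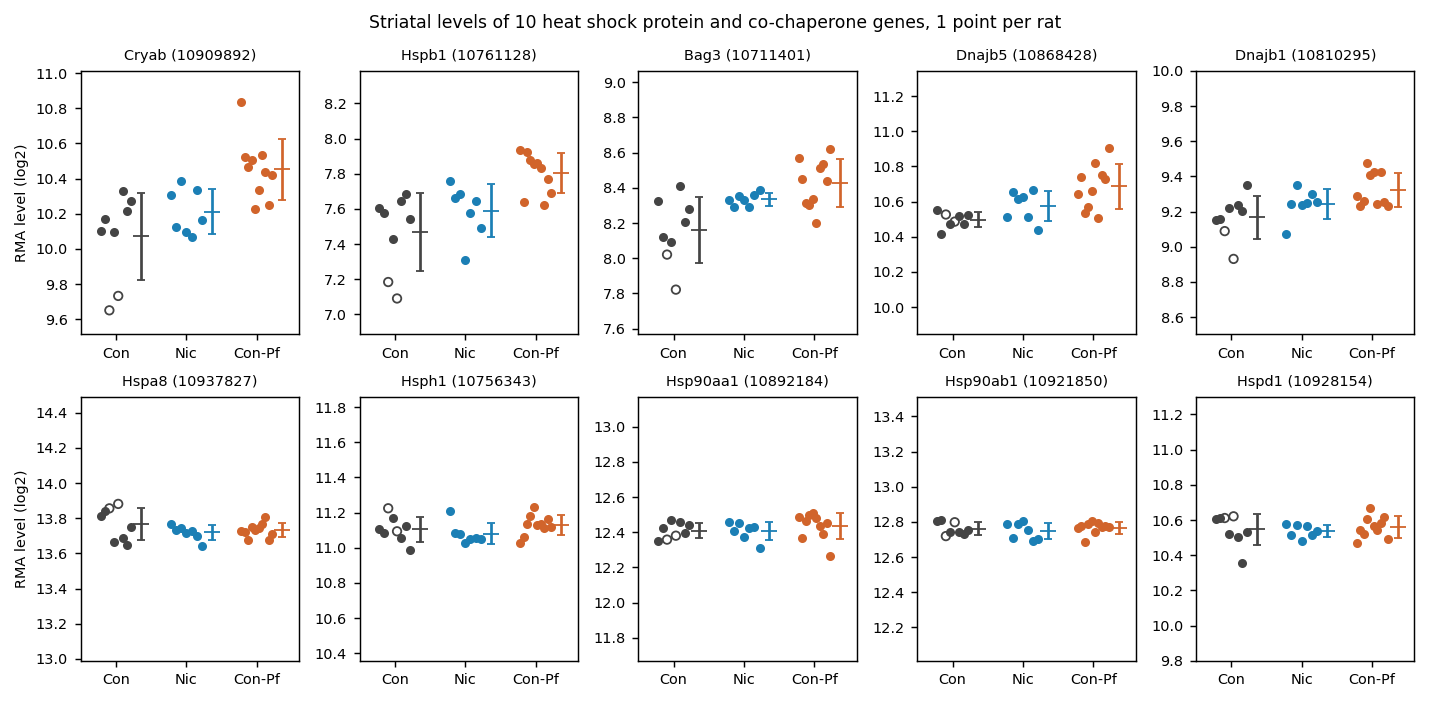
Level (RMA, log2) of each of the 10 genes on every array, 1 point per rat, with bars for the group mean ± SD and each panel spanning 1.5 log2 units around its mean. Open circles are Con 3 and Con 5, the lowest arrays for Cryab, Hspb1 and Bag3, and for Hspa8, Hsph1, Hsp90aa1, Hsp90ab1 and Hspd1 the 3 groups lie at the same height.

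Cryab encodes alpha B-crystallin, a small heat shock protein that holds unfolding proteins in large oligomers. Its level (probe set 10909892) in Con ran from 9.65 in Con 3 through a median of 10.14 to 10.33. In Nic it ran from 10.07 through 10.17 to 10.39, and in Con-Pf from 10.23 through 10.45 to 10.84. The upper end of Con overlapped the lower end of Con-Pf, and 8 of 10 Con-Pf arrays lay above every Con array. Con-Pf (10.45 ± 0.17, SD, n = 10) was higher than Con (10.07 ± 0.25, SD, n = 8) by 0.38 on the log2 scale (limma, SE 0.0853, 95% interval 0.21 to 0.56, adjusted p = 0.0192).

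Hspb1 encodes HSP27, the small heat shock protein that also binds actin filaments. Its level (probe set 10761128) lay between 7.09 (Con 5) and 7.69 in Con with a median of 7.56. Nic spanned 7.31 to 7.76 around a median of 7.64, and Con-Pf 7.62 to 7.94 around 7.84. Con and Con-Pf overlapped in the narrow stretch from 7.62 to 7.69, again with 8 of 10 Con-Pf arrays above every Con array. The difference of Con-Pf (7.80 ± 0.11, SD, n = 10) from Con (7.47 ± 0.22, SD, n = 8) was 0.33 (limma, SE 0.0741, 95% interval 0.18 to 0.48, adjusted p = 0.0192).

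Among the HSP70 family, Hspa8 encodes HSC70, the constitutive form, which also strips clathrin from vesicles. On its probe set with the highest mean (10937827), Con ran from 13.65 through 13.78 to 13.88, Nic from 13.64 through 13.73 to 13.77, and Con-Pf from 13.68 through 13.73 to 13.81. The spread was wider in Con (SD 0.0927) than in Con-Pf (SD 0.0395), and Con held both the highest array, Con 5, and low ones. Con-Pf minus Con was -0.04 on this probe set (95% interval -0.11 to 0.03) and between -0.05 and 0.02 over the 8, none of them called by limma. Those 8 moved nearly as 1 across the 25 arrays, with correlations of 0.73 to 0.996 over the 28 pairs and a mean deviation from -0.10 in Nic 7 to 0.14 in Con 5.

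Those 8 probe sets are uncertain as separate measures of the gene. Probe-set numbers on this array mostly follow position, 91.8% of adjacent annotated ones being on 1 chromosome. The 10 annotated neighbours of each Hspa8 probe set included at most 1 on chromosome 8, where the gene lies, and were instead mostly on 11, 18, 2, 5, 6 or X. Near-identical copies of a gene would share its probes, and the values here cannot separate the gene from such copies.

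**Figure D2:**
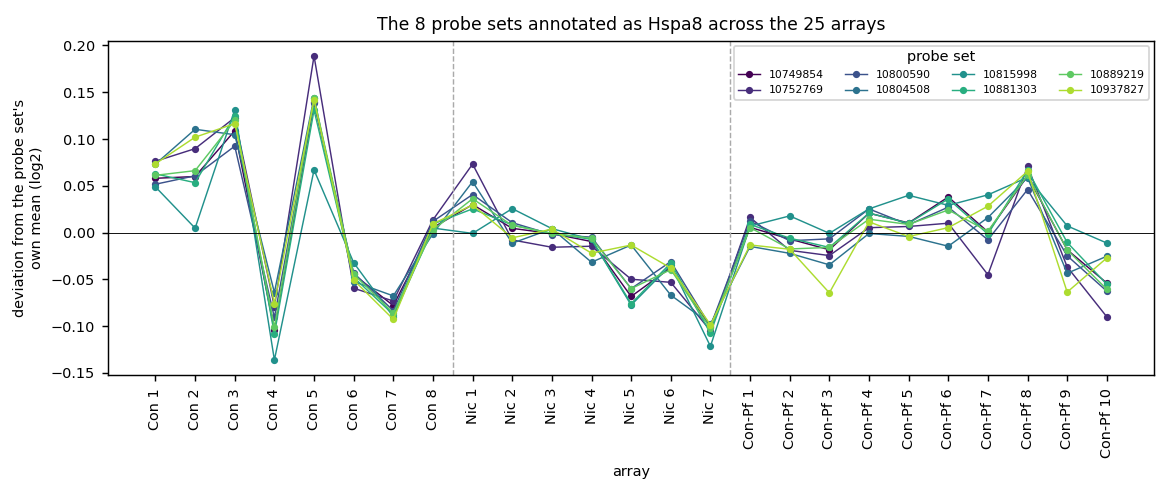
Deviation of each of the 8 Hspa8 probe sets from its own mean (log2) on every array, in the order Con, Nic, Con-Pf, with dashed lines between groups. The lines lie nearly on top of each other, with the highest mean deviation in Con 5 (0.14) and the lowest in Nic 7 (-0.10).

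Hsph1 encodes HSP105, a member of the HSP110 class that recharges HSP70 with ATP. It ranged over 10.99 to 11.22 in Con (median 11.10), 11.03 to 11.21 in Nic (median 11.06) and 11.03 to 11.23 in Con-Pf (median 11.13), so that the groups overlapped over most of their range. Con-Pf minus Con was 0.02 (limma, 95% interval -0.05 to 0.10), which was not called.

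The DNAJ co-chaperones of the set were Dnajb5 and Dnajb1, both of the class that hands clients to HSP70. Dnajb5 (probe set 10868428) was tight in Con, at 10.42 to 10.55 around a median of 10.50, while Nic reached from 10.44 through 10.62 to 10.67 and Con-Pf from 10.50 through 10.69 to 10.91. All 10 Con-Pf arrays lay above the Con median and 8 above every Con array, with Con-Pf 10 the highest. Con-Pf (10.69 ± 0.13, SD, n = 10) exceeded Con (10.50 ± 0.04, SD, n = 8) by 0.19 (limma, SE 0.0470, 95% interval 0.09 to 0.29, adjusted p = 0.0403). Here the Con-Pf spread, not that of Con, was the wide one.

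Dnajb1 encodes HSP40, the DNAJ protein known to be induced by heat. It ran from 8.93 (Con 5) through 9.18 to 9.35 in Con, from 9.08 through 9.25 to 9.35 in Nic, and from 9.23 through 9.27 to 9.48 in Con-Pf. Every Con-Pf array lay above the Con median, but only 4 of 10 above all Con arrays. The difference of 0.16 between Con-Pf and Con (limma, SE 0.0495, 95% interval 0.06 to 0.26) did not pass the test, with an adjusted p of 0.0990 and an unadjusted p of 0.00381.

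Bag3 links HSP70 and small heat shock proteins and sends damaged clients to autophagy. Its level (probe set 10711401) in Con ran from 7.82 in Con 5 through 8.16 to 8.41, and in Con-Pf from 8.20 through 8.44 to 8.62. Nic was very tight, at 8.29 to 8.39 around 8.33. The Con-Pf arrays overlapped the upper part of Con, with 6 of 10 above every Con array, and enclosed the whole Nic range. Con-Pf (8.43 ± 0.14, SD, n = 10) was higher than Con (8.16 ± 0.19, SD, n = 8) by 0.27 (limma, SE 0.0636, 95% interval 0.14 to 0.40, adjusted p = 0.0299).

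Of the HSP90 pair, Hsp90aa1 is the inducible and Hsp90ab1 the constitutive cytosolic form. Hsp90ab1 spanned only 0.13 over all 25 arrays, from 12.68 in Con-Pf 3 to 12.81 in Con 2, the narrowest range of the 18 probe sets. Its means were 12.76 ± 0.04 in Con, 12.75 ± 0.05 in Nic and 12.77 ± 0.03 in Con-Pf (SD, n = 8, 7 and 10), and Con-Pf minus Con was 0.00 with a 95% interval of -0.05 to 0.06. Hsp90aa1 lay between 12.27 (Con-Pf 10) and 12.51 (Con-Pf 5), so that both ends of its range fell in Con-Pf. Its Con-Pf minus Con difference was 0.03 (95% interval -0.04 to 0.10), and neither gene was called by limma.

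Hspd1, the mitochondrial chaperonin HSP60, had 2 probe sets. On 10928154, Con ran from 10.36 (Con 7) through 10.57 to 10.62, Nic from 10.48 to 10.58 and Con-Pf from 10.47 to 10.67, and Con-Pf minus Con was 0.01 (95% interval -0.06 to 0.09). The other, 10776667, gave -0.03 (95% interval -0.13 to 0.07) and correlated with the first at 0.74 over the 25 arrays. None of its 10 annotated neighbours lay on chromosome 9, where the gene is, but 9 lay on chromosome 14, so that it may read another copy. Neither was called.

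**Figure D3:**
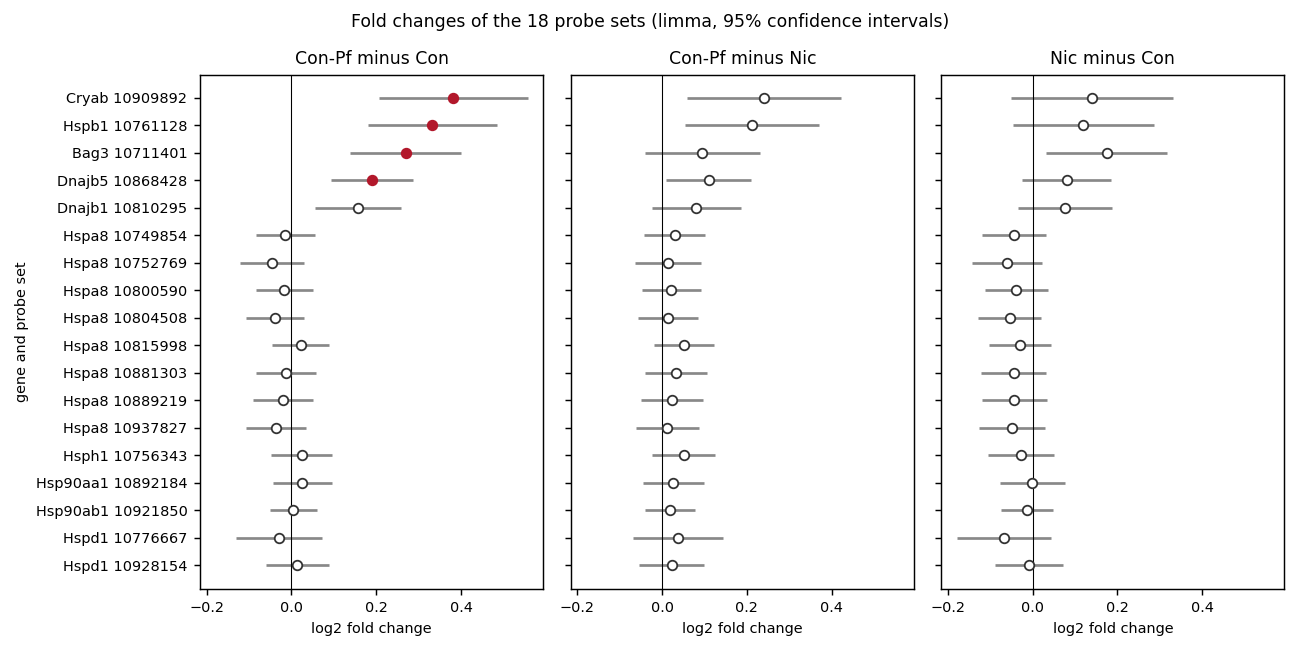
Log2 fold change (x axis) with its 95% interval for each of the 18 probe sets in the 3 comparisons, filled red where limma's adjusted p was under 0.05. Filled points appear for Cryab, Hspb1, Bag3 and Dnajb5 in Con-Pf minus Con and nowhere else, and all 18 points lie above 0 in Con-Pf minus Nic (15 with each array centred on its median).

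The 5 genes that were not called other than Dnajb1 had 95% intervals ending at or below 0.10, less than the estimates for the 4 called genes. A difference between the called and uncalled genes was not tested. In this bulk tissue a change in the number of cells of a type and a change in RNA per cell cannot be told apart.

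The calls depended on Con 3 and Con 5, which were the lowest 2 of all 25 arrays for Cryab, Hspb1 and Bag3. Without them, Con-Pf minus Con was 0.25 for Cryab (limma, SE 0.0707, adjusted p = 0.144), 0.22 for Hspb1 (SE 0.0606, adjusted p = 0.134) and 0.19 for Bag3 (SE 0.0564, adjusted p = 0.214). Dnajb5 kept its value of 0.19 (SE 0.0519) but not its call (adjusted p = 0.126), and Dnajb1 went to 0.10 (adjusted p = 0.572). None of the 18 was then called, against 0.582% of all probe sets, while 5 were still higher at an unadjusted p under 0.05, against 5.55% of all. Leaving out Con 3 alone also ended all 4 calls, and leaving out Con 5 alone left Hspb1.

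**Figure D4:**
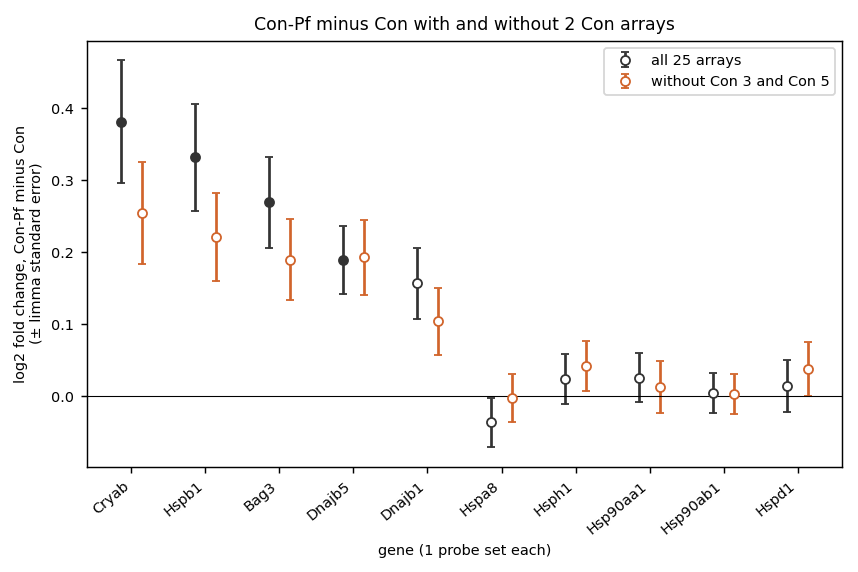
Log2 fold change of Con-Pf minus Con (± limma standard error) for each gene with all 25 arrays (grey) and without Con 3 and Con 5 (orange), filled where the adjusted p was under 0.05. Cryab falls from 0.38 to 0.25, Hspb1 from 0.33 to 0.22 and Bag3 from 0.27 to 0.19, while Dnajb5 stays at 0.19.

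The 2 arrays with conflicting labels also bore on the calls. With Con-Pf 9 and 10 left out, Cryab (0.41, limma adjusted p = 0.0244) and Hspb1 (0.35, adjusted p = 0.0336) stayed called while Bag3 (0.24, adjusted p = 0.0893) and Dnajb5 (0.16, adjusted p = 0.105) did not. Counted as Con, they left no call, with 0.36 for Cryab, 0.30 for Hspb1, 0.17 for Bag3 and 0.09 for Dnajb5.

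Con-Pf was also compared with Nic, whose dams set the intake of the pair-fed ones. These differences share the Con-Pf arrays with those above and are not independent of them. None of the 18 was called by limma, against 0.185% of all probe sets, while 3 were higher at an unadjusted p under 0.05, against 1.82% of all in that direction. These were Cryab (0.24, SE 0.0886, 95% interval 0.06 to 0.42, unadjusted p = 0.0115), Hspb1 (0.21, SE 0.0770, 95% interval 0.05 to 0.37, unadjusted p = 0.0104) and Dnajb5 (0.11, SE 0.0488, 95% interval 0.01 to 0.21, unadjusted p = 0.0335). Their limma adjusted p-values were 0.839, 0.811 and 0.999. The methods' t-test likewise called 0 of the 18 after adjustment.

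For Cryab and Hspb1, 7 of 10 Con-Pf arrays lay above every Nic array, and for Bag3 6 did, since the Nic arrays sat so closely together. Bag3 differed by 0.09 and Dnajb1 by 0.08, both with intervals that included 0. The 13 probe sets of Hspa8, Hsph1, the HSP90 genes and Hspd1 lay between 0.01 and 0.05. All 18 fold changes were above 0 (15 with each array centred on its median, when 3 of Hspa8 fell below it), where 44.1% of all probe sets were, but with 8 near-identical Hspa8 probe sets among them they are not 18 separate observations.

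Nic was compared with Con for the offspring of nicotine dams. None of the 18 was called by limma, as for all 14607 probe sets (0.00%), and 1 was higher at an unadjusted p under 0.05, against 12.3% of all. That gene was Bag3, at 0.17 (SE 0.0693, 95% interval 0.03 to 0.32, unadjusted p = 0.0180, limma adjusted p = 0.273). Cryab differed by 0.14, Hspb1 by 0.12, and Dnajb1 and Dnajb5 by 0.08 each, and none passed the test. In order of their means, these 5 genes ran Con, Nic, Con-Pf, with no 2 neighbours in that order differing at an adjusted p under 0.05. The other 13 probe sets, 8 of them of Hspa8, lay below 0 in Nic minus Con, the lowest at -0.07 (Hspd1, 10776667). Thus 5 of the 18 lay above 0 (6 with each array centred on its median), beside 8639 of all 14607. With 1 probe set a gene, 5 of 10 did. Without Con 3 and Con 5 the Nic minus Con values shrank to 0.01 for Cryab and Hspb1 and to 0.10 for Bag3, and 0 of the 18 had an unadjusted p under 0.05, against 3.70% of all in the upward direction.

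Genes of the set also varied together within groups. Over the 45 pairs of genes, with group means removed and n = 25 arrays, 4 correlations passed a permutation test within groups (100000 resamples, Benjamini-Hochberg over the 45 pairs), all positive. Cryab went with Hspb1 (Pearson r = 0.68, Spearman rho = 0.69, adjusted p = 0.0316 and 0.0351 by permutation) and with Bag3 (r = 0.65, rho = 0.60, adjusted p = 0.0316 and 0.0443 by permutation). Hspa8 went with Hspd1 (r = 0.64, rho = 0.66, adjusted p = 0.0316 and 0.0443 by permutation) and Hsp90aa1 with Hspb1 (r = 0.54, rho = 0.49, adjusted p = 0.0316 and 0.115 by permutation).

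The first 3 of these leaned on a few arrays. Without Con 3 and Con 5 the same 4 pairs had r of 0.39, 0.44, 0.57 and 0.55 and no longer passed (adjusted p between 0.192 and 0.366 by permutation), while Hsp90ab1 with Hspa8 did (r = 0.64, adjusted p = 0.0432). Without the 2 arrays farthest from the median of the first gene, r was 0.48, 0.50, 0.47 and 0.58.

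Each called member had its own closest genes on the array, by Pearson r of group-centred values over the 25 arrays. Cryab was most like Mt2A, a metal-binding metallothionein (r = 0.86, 0.76 without Con 3 and Con 5), Ftl1, the light chain of the iron store ferritin (0.82 and 0.61), and Yrdc (0.80 and 0.71). Hspb1 was most like Rpl21, a ribosomal protein (0.86 and 0.68), Fth1, the ferritin heavy chain (0.84 and 0.71), and Acot13 (0.82 and 0.68). Bag3 was nearest to Lhx2 (0.83 and 0.69), Rin3 (0.83 and 0.76) and Aagab (0.82 and 0.68). Dnajb5 kept the same likeness with or without the 2 arrays, to Dusp4, a phosphatase of MAP kinases (0.80 and 0.82), to Gpr63 (0.79 and 0.79) and to Arhgef3 (0.76 and 0.76). In Con-Pf minus Con, Dusp4 (0.55, limma adjusted p = 7.64e-05) and Arhgef3 (0.25, adjusted p = 0.0487) were themselves called higher. Gpr63 (0.24, adjusted p = 0.136) and the genes named for Cryab, Hspb1 and Bag3 were not called. The paper also lists Dusp4 among its genes of this comparison. All these closest genes were picked as the highest of many and are a description.

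Beyond the 10 genes, 120 other chaperone and heat shock response genes were listed, of which 106 were on the array and 91 passed the filter. None of the 91 was called by limma in any of the 3 comparisons. In Con-Pf minus Con, 20 were higher and 4 lower at an unadjusted p under 0.05, beside 14.2% and 7.76% of all probe sets, and 69 of 91 lay above 0 with a median of 0.04, beside 55.8% and 0.02 over all. Without Con 3 and Con 5 the counts fell to 4 higher and 1 lower, beside 5.55% and 2.55% of all, and 68 of 91 lay above 0 with a median of 0.02, beside 55.2% and 0.01 over all. In Con-Pf minus Nic 1 was higher and 0 lower, beside 1.82% and 2.54% of all, with a median of -0.01 here and over all probe sets. In Nic minus Con 12 were higher and 2 lower, beside 12.3% and 3.96% of all probe sets, with a median of 0.05 beside 0.02. Without Con 3 and Con 5 this comparison had 4 higher and 0 lower, beside 3.70% and 0.945% of all probe sets. The median was then 0.02 beside 0.02 over all.

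By role, the other small heat shock proteins above the filter, Hspb6 (0.15, limma adjusted p = 0.289) and Hspb8, a partner of BAG3 (0.13, adjusted p = 0.354), were not called in Con-Pf minus Con, and Cryaa, Hspb2, Hspb3, Hspb7 and Hspb9 fell below the filter. Heat shock factor 1 itself, Hsf1, stood at 0.12 (adjusted p = 0.184) and Hsf2 at 0.02. The 7 other HSP70 and HSP110 genes had a median of 0.00, with Hspa12a at -0.14 (adjusted p = 0.193).

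Of 27 other DNAJ genes 20 lay above 0 (18 under either other scaling) and 9 were higher at an unadjusted p under 0.05, led by Dnajc12 (0.18, limma adjusted p = 0.0849) and Dnajb4 (0.14, adjusted p = 0.102), beside 55.8% and 14.2% of all probe sets. Con 5 was the lowest array for their mean (9.28, against 9.38 for the Con mean), and without Con 3 and Con 5 the median went from 0.06 to 0.03, with 21 above 0 and 2 higher at that p. The 7 BAG and nucleotide exchange genes had 6 above 0, with Bag4 at 0.09 and Bag2 at 0.14, and their median went from 0.07 to 0.03 without the 2 arrays. All 9 other chaperonin genes lay above 0, under the other scalings too, with a median of 0.07, Cct4 of the cytosolic chaperonin ring at 0.13 (adjusted p = 0.129) and Cct2 at 0.10. Their mean was also lowest on Con 5 (10.04, against 10.22 for the Con mean), and without Con 3 and Con 5 8 of 9 lay above 0 with a median of 0.02. The 14 endoplasmic reticulum chaperones had a median of 0.04 (0.01 without the 2 arrays), with Sdf2l1 at 0.17 (adjusted p = 0.206) and Pdia6 at 0.11. In Nic minus Con, 8639 of all 14607 probe sets lay above 0. So did 20 of 27 DNAJ, 7 of 7 BAG and nucleotide exchange and 9 of 9 chaperonin genes. Their medians were 0.06, 0.05 and 0.06, beside 0.02 over all probe sets. Without Con 3 and Con 5 those medians were 0.05, 0.04 and 0.03, beside 0.02 over all. Above 0 were then 22 of 27, 5 of 7 and 9 of 9, beside 62.0% of all. In Con-Pf minus Nic 11 of 27, 3 of 7 and 5 of 9 of the same lists lay above 0, beside 44.1% of all. The medians there were -0.01, -0.01 and 0.00, beside -0.01 over all.

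Of the 19 genes listed with HSP90, 14 lay above 0 with a median of 0.03, beside 55.8% and 0.02 over all probe sets. At an unadjusted p under 0.05, 3 were higher and 2 lower, beside 14.2% and 7.76% of all. Without Con 3 and Con 5, 16 lay above 0, beside 55.2% of all. Among the 19, Fkbp5 came nearest to the threshold and pointed down (-0.21, SE 0.0588, limma adjusted p = 0.0658), while Sugt1 stood at 0.16. The 4 other heat shock responsive genes, 2 of them above 0, included Ddit4 at -0.18 (adjusted p = 0.119) and Mt2A at 0.16 (adjusted p = 0.159). Mt2A was read here on another probe set (10809399) than the one most like Cryab (10827989).

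**Figure D5:**
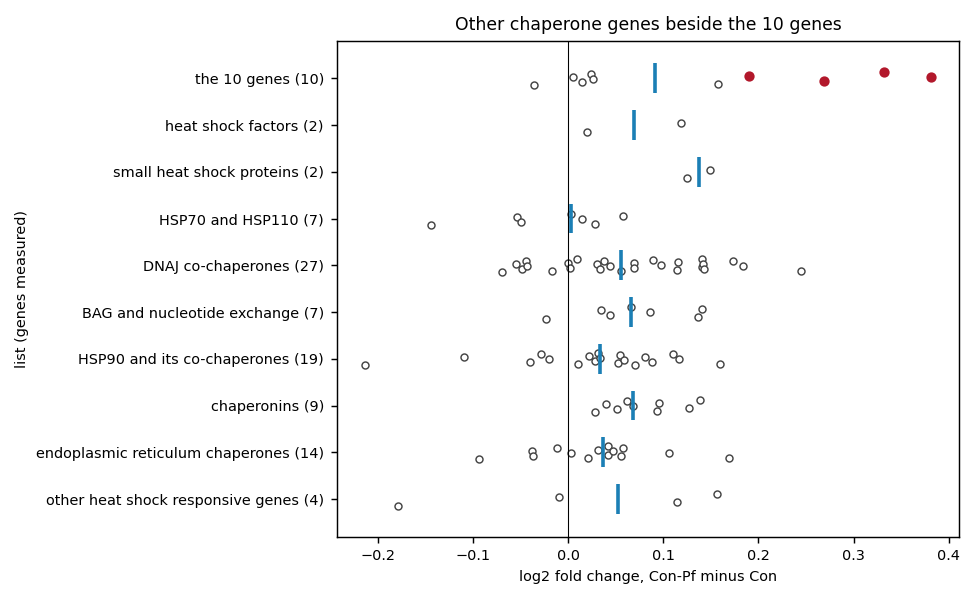
Log2 fold change of Con-Pf minus Con for the 10 genes and for each list of other chaperone genes (number measured in brackets), 1 point per gene, filled red where limma's adjusted p was under 0.05 and with a blue bar at the list's median. Red points occur in the top row alone, and the 9 other chaperonin genes all lie above 0 with the 25 arrays (8 of 9 without Con 3 and Con 5).

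Markers of other cells were read beside these values, since Cryab is also an oligodendrocyte gene. No marker of any list was called in any comparison. The 9 oligodendrocyte markers, led by Mbp and Cnp, had a median of 0.05 in Con-Pf minus Con with 8 above 0 (6 under either other scaling), and their mean per array ran from 12.12 to 12.37 in Con, 12.20 to 12.38 in Nic and 12.25 to 12.51 in Con-Pf. On Con 3 and Con 5, where Cryab was lowest, that mean was 12.22 and 12.36, within the range of the other arrays. Without these 2 arrays 9 of 9 oligodendrocyte markers lay above 0 in Con-Pf minus Con, with a median of 0.05. Over all probe sets 55.2% then lay above 0, with a median of 0.01.

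Astrocyte markers (8 genes, led by Slc1a2 and Aldoc, median -0.04 in Con-Pf minus Con) averaged 11.43 to 11.74 in Con, 11.44 to 11.62 in Nic and 11.50 to 11.72 in Con-Pf, and stood at 11.74 on both Con 3 and Con 5, the top of their range. At an unadjusted p under 0.05, 3 of the 8 were lower in Con-Pf than in Con, and 0 without Con 3 and Con 5. The 11 mural and meningeal markers, led by Rgs5 and Acta2, had a median of -0.09, with 5 lower at that p (2 without Con 3 and Con 5) beside 7.76% of all probe sets, and means of 8.59 to 8.76 in Con and 8.51 to 8.69 in Con-Pf. The 8 endothelial markers (Itm2a and Slco1a4 the highest, Ly6c below the filter) had a median of -0.04 with 1 above 0. The 7 microglial markers (Cx3cr1 and Csf1r the highest, Itgam below the filter) had a median of 0.06, and the 2 blood markers, Hbb and Alas2, of -0.04. Without Con 3 and Con 5 the medians were -0.06 for the endothelial, -0.02 for the microglial and -0.18 for the blood markers.

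Markers of tissue next to the striatum had the widest ranges and the largest median differences in Con-Pf minus Con among the marker lists. The 2 cortical genes above the filter, Slc17a7 and Cck, averaged 7.60 to 9.21 in Con, 7.40 to 9.80 in Nic and 7.45 to 8.20 in Con-Pf, with 9.21 on Con 5 and 7.61 on Con 3, while Slc17a6, Neurod6 and Neurod2 fell below the filter. Their median was -0.41 in Con-Pf minus Con, and -0.85 in Con-Pf minus Nic, where both were lower at an unadjusted p under 0.05 (2.54% of all probe sets were). The 3 choroid plexus and ependymal genes above it, led by Ttr and Foxj1, averaged 7.19 to 10.24 in Con and 7.28 to 10.63 in Con-Pf, with a median of 0.35 in Con-Pf minus Con, 3 of 3 above 0 and 1 at an unadjusted p under 0.05. Without Con 3 and Con 5 these medians were -0.29 for the cortical and 0.09 for the choroid plexus genes. Kl, Clic6, Kcnj13 and Prlr fell below the filter. The part of these cell types in the differences of the 10 genes was not tested.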

How the data were processed

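RNA of 25 striata (Con 8, Nic 7, Con-Pf 10) was hybridised to Affymetrix rat gene 1.0st arrays, and groups were taken from the sample titles. The deposited log2 values are the authors' RMA summaries, which come from background correction, quantile normalisation across arrays and a summary of the probes of each set. Affymetrix Expression Console 1.1 is named in the submitters' processing notes. Quantile normalisation forces the probe values of the arrays to 1 distribution, so only changes relative to other genes can be seen. The summaries still held small shifts between arrays. Under further quantile normalisation the median over all probe sets went from 0.0152 to -0.00256 in Con-Pf minus Con. In Nic minus Con it went from 0.0238 to 0.00246. Before deposit the authors removed 2 Con arrays and 1 Nic array. The number of arrays limits the precision.

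Probe sets with a mean at or above the median (quantile 0.5, log2 level 6.97) were kept. The study's methods filter at the median and name a t-test, and limma 3.58.1 in R 4.3.3 was used here in 1 model over the 3 groups, with Benjamini-Hochberg adjustment over the 14607 probe sets kept (threshold 0.05). The step was tested on simulated data. Symbols came from the platform annotation (15310 probe sets with 1 symbol), and where 1 probe set stands for a gene it is the one with the highest mean over the arrays. Promoters were taken from RefSeq (GRCr8). Tables and figures were made with Python 3.11.15, pandas 2.3.3, numpy 2.4.6 and matplotlib 3.10.9. The members and lists were chosen with earlier results of these data known. All members are named, with the 1 or 2 genes of smallest p in Con-Pf minus Con from each other list, the 2 markers of highest level, and the 3 genes most like each called member.

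Alternatives were the methods' t-test with unequal and with pooled variance, the 2 compared groups only, moderation with trend and robust options, array weights, no filter and a stricter one (quantile 0.75), further quantile normalisation, centring, other uses of Con-Pf 9 and 10, each array left out in turn, Con 3 and Con 5 left out, and the replicate number as a block.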

Additional observations from a re-analysis of the deposited data

Results flagged for a closer look

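In 54 combinations of probe set and group, 5 held 1 array whose gap to the nearest other array, divided by the range of the group, passed Dixon's 95% critical value, which chance alone passes in about 1 of 20 groups. Cryab was highest in Con-Pf 1 (10.84, ratio 0.502), and without that array Con-Pf minus Con was 0.34 and was still called (limma adjusted p = 0.0312). Dnajb1 was lowest in Nic 1 (9.08, ratio 0.593) and Hsph1 was highest in the same array (11.21, ratio 0.692). Hsp90ab1 was lowest in Con-Pf 3 (12.68, ratio 0.491) and Hspd1, on probe set 10928154, in Con 7 (10.36, ratio 0.552). None of the 8 probe sets of Hspa8 had such an array, although Con 5 was the highest array on most of them.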

How the results depend on the processing

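The count of 4 member probe sets called in Con-Pf minus Con depended on the processing. It was 0 with the methods' t-test, 0 with pooled variance and 0 with no filter (Cryab and Hspb1 then had a limma adjusted p of 0.0521). It was 1 with the 2 compared groups only and 1 with array weights (both Hspb1). A stricter filter gave 2 (Cryab and Dnajb5), with 15 of the 18 measured. Hspb1 and Bag3 fell below that filter and were not tested under it. It was 2 with Con-Pf 9 and 10 left out, 0 with them counted as Con, and 0 with Con 3 and Con 5 left out. Leaving out 1 array at a time gave 0 to 5 calls, 0 without Con 3, 1 without Con 5, 2 without Con-Pf 2, Con-Pf 9 or Con-Pf 10, and 5 without Con 8, where Dnajb1 was added. Same-numbered arrays correlated at -0.36 to 0.34, with 10 of 21 pairs over 0.1, and 5 of 21 arrays correlated best with their own number. Between Con and Con-Pf these correlations ran from 0.02 to 0.18. Whether replicate numbers pair the arrays cannot be settled by this check, since no arrays known to be paired were at hand. A fit with the replicate number as a block on replicates 1 to 7 called 2, and so did the same arrays with no block. The other chaperone genes called went from 0 to 1 (Fkbp5, lower) with further quantile normalisation and 0 to 1 over the fits that left out 1 array. Correlated pairs numbered 4, 1 without Con 3 and Con 5 and 8 with values not centred on group means. Apart from the sets of fewer arrays or probe sets tested, the cause of these changes was not tested. Over 54 member values and up to 39 alternatives each, 2042 of 2097 values kept their side of the threshold, 54 lost a call and 1 gained a call. Most of these values were not called in the main fit. Every loss fell on the 4 called genes in Con-Pf minus Con. Dnajb5 lost its call in 23 of 39 alternatives, Bag3 in 16 of 38, Cryab in 9 of 39 and Hspb1 in 6 of 38. Cryab, Hspb1, Bag3 and Dnajb5 never changed sign. In the 2 comparisons with Nic the member count stayed at 0 throughout.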
